A study of Mus musculus with 2 samples.

Results

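DNA methylation was followed at 9 genes that hold back the entry into DNA replication: the cyclin-dependent kinase inhibitors Cdkn1a, Cdkn1b, Cdkn2a, Cdkn2b, Cdkn2c and Cdkn2d, and the retinoblastoma family genes Rb1, Rbl1 and Rbl2. They were chosen by name, out of 55413 annotated genes, and every CpG cytosine in their bodies and within 1 kb of their starts was taken. The DNA came from myotubes, the multinucleate cells into which cultured myoblasts fuse, here differentiated from mouse C3H myoblasts in medium with horse serum. The myotubes received a control siRNA (siCon) or one that targets H19, a long non-coding RNA (siH19), and were harvested 48 h after transfection. Each group was 1 library, so every test below compares 2 libraries and not 2 conditions, and a difference between cultures cannot be told apart from one due to the siRNA. The level of H19 and the identity of the cells cannot be read from methylation calls, and neither was checked here.

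Cyclin-dependent kinase inhibitors bind the kinases that drive cells from G1 into S phase. The CIP/KIP proteins encoded by Cdkn1a (p21) and Cdkn1b (p27) act on cyclin-kinase complexes, whereas the INK4 proteins encoded by Cdkn2a (p16INK4a), Cdkn2b (p15INK4b), Cdkn2c (p18INK4c) and Cdkn2d (p19INK4d) bind Cdk4 and Cdk6 themselves. Cdkn2a also encodes Arf, a regulator of the p53 pathway, from a separate start. The pocket proteins pRb (Rb1), p107 (Rbl1) and p130 (Rbl2) bind E2F transcription factors and repress their targets until the kinases phosphorylate them. In muscle, p21 and pRb are known for their part in the permanent exit from the cell cycle that accompanies fusion into myotubes. Methylation of CpG-rich promoters is generally associated with silencing, and loss or silencing of Cdkn2a is common in cell lines that grow without limit.

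The 9 genes held 8175 CpG cytosines, both strands counted, in GRCm38. The assay, reduced representation bisulfite sequencing, reads only the CpGs near the ends of short fragments cut at CCGG by MspI and at TCGA by TaqαI. There were reads in both libraries at 1416 of the cytosines and at least 5 reads in each at 1127, of which 818 lay outside the cut sites themselves and were compared. Over the genome 1850635 cytosines met the same rule. The siCon library held 104999613 reads summed over its cytosines and the siH19 library 106372792, with median depths of 12 and 13 reads per cytosine.

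Cdkn2a and Cdkn2b gave no reads at any of their starts, although their promoters hold the sites that the enzymes cut. The bases before both Cdkn2a starts and the Cdkn2b start are shown with those before the start of Cdkn1b and the CpG-rich inner start of Cdkn1a, which were read deeply. They come from RefSeq's GRCm38.p6 promoter sequences, which matched 8 of the 9 genes, and are written 5′ to 3′ on the strand of the gene, with CCGG and TCGA in capitals. The names give the gene, its start and the coordinates of the stretch.
Cdkn2a, outer (Arf) start, chr4:89294654-89294869, minus strand: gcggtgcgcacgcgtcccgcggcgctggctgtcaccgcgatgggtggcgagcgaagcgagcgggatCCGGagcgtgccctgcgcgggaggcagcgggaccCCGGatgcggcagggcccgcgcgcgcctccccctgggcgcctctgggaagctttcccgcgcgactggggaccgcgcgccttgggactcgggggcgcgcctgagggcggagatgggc
Cdkn2a, inner (p16INK4a) start, chr4:89282193-89282442, minus strand: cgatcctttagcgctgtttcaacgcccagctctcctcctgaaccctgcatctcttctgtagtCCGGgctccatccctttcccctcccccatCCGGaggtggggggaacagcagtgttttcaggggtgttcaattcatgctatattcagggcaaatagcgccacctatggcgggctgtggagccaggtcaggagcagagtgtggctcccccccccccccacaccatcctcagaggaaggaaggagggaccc
Cdkn2b, chr4:89311040-89311282, minus strand: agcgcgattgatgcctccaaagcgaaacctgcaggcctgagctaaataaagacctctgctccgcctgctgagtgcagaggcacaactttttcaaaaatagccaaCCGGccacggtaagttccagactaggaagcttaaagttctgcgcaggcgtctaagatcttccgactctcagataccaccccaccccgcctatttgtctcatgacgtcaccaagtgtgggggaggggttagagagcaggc
Cdkn1b, chr6:134920151-134920400, plus strand: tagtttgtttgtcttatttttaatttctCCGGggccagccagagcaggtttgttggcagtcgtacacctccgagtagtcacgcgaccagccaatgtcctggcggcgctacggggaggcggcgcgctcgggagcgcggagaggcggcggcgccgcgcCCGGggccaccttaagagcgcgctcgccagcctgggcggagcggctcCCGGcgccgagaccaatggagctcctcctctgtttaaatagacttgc
Cdkn1a, inner start, chr17:29093519-29093768, plus strand: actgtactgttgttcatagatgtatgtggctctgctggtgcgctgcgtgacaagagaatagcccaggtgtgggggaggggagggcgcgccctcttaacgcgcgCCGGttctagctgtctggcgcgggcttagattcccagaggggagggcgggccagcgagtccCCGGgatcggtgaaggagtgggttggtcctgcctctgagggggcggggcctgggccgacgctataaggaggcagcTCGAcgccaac
The stretch before the outer Cdkn2a start holds 35 CpGs and 2 cut sites, and 59 of its cytosines lie in fragments of 40 to 220 bp, a range set here to stand for the size selection, outside which some cytosines were read too. None of them had a read in either library. The stretch before the inner start, with 7 CpGs and 2 cut sites, and that before Cdkn2b, with 11 CpGs and 1 cut site, also had 0 reads. By contrast, the Cdkn1b stretch, with 28 CpGs and 3 cut sites, carried 1121 reads in siCon and 921 in siH19, summed over its cytosines. The Cdkn1a stretch, with 19 CpGs and 3 cut sites, carried 474 reads in siCon and 1056 in siH19.

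In windows of 1 kb on either side of the starts, 0 of 258 Cdkn2a cytosines in such fragments had a read in either library, which allows a share of up to 1.16%. At Cdkn2b the count was 0 of 96, which allows up to 3.13%. At the inner start of Cdkn2a it was 0 of 68, which allows up to 4.41%. Such limits, like the intervals below, take in counting error alone, because PCR copies of 1 molecule cannot be told from separate molecules here. The limits also count each cytosine as separate, whereas those of 1 fragment are often read or missed together, so they are too low. The promoters of 6 other members were read at most of their fragment cytosines: in siCon at 58.4% for Cdkn1b, 78.3% for Cdkn2c, 83.6% for Cdkn2d, 85.3% for Rb1, 67.0% for Rbl1 and 66.7% for Rbl2. In siH19 the shares ran from 61.2% for Cdkn1b to 83.6% for Cdkn2d. Over the genome, 68.1% of fragment cytosines had a read in siCon and 68.7% in siH19. The remaining member, Cdkn1a, also had no read within 1 kb of its outer start, but none of the 34 CpG cytosines there lies in a fragment of 40 to 220 bp.

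The bodies of Cdkn2a and Cdkn2b had a few reads, all of them in soft-masked repeats. In Cdkn2a, 7 cytosines in siCon and 8 in siH19 had reads, which summed to 43 and 99. In Cdkn2b a single cytosine, at chr4:89307897, had 6 reads in siCon and 26 in siH19, all of them methylated. The 2 Cdkn2a cytosines that could be compared lie in intron 2, at chr4:89275776 and chr4:89275812. The first was methylated in 1 of 12 reads in siCon and 8 of 27 in siH19, and the second in 7 of 13 and 7 of 27. Whether the reads in these repeats came from this locus was not tested.

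The stretch without reads outside repeats reached well past both genes. To the left of Cdkn2a the last covered cytosine outside repeats was chr4:89259832, with 8 reads in siCon and 1 in siH19. To the right of Cdkn2b the first was chr4:89486839, with 30 reads in siCon and 43 in siH19. Between them lay 227 kb with 3178 CpG cytosines outside repeats, none of which had a read in either library. Of these, 656 lay in fragments of 40 to 220 bp. With each cytosine counted as separate, 0 reads allows a share of up to 0.457%, a limit that is again too low. Over the genome 73.1% of such cytosines had a read in siCon and 73.6% in siH19. In the 1 Mb to the left the shares were 58.0% in siCon and 57.5% in siH19, and in the 1 Mb to the right 74.3% and 73.5%. Repeats within the stretch had 184 reads in siCon and 333 in siH19, summed over cytosines, of which 50% and 48.9% were methylated.

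Besides Cdkn2a and Cdkn2b, the stretch holds the non-coding annotations Gm12609, Gm12610, Gm12608 and Gm27580, and one end of Gm12606. The nearest protein-coding neighbours were read. Mtap, which encodes an enzyme of methionine salvage and lies to the left, had reads at 82 of 108 fragment cytosines outside repeats in siCon and 84 in siH19. Dmrta1, a transcription factor gene to the right, had reads at 69 of 102 in both libraries. The plot of reads around the locus shows the same empty stretch in each library.

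**Figure D1:**
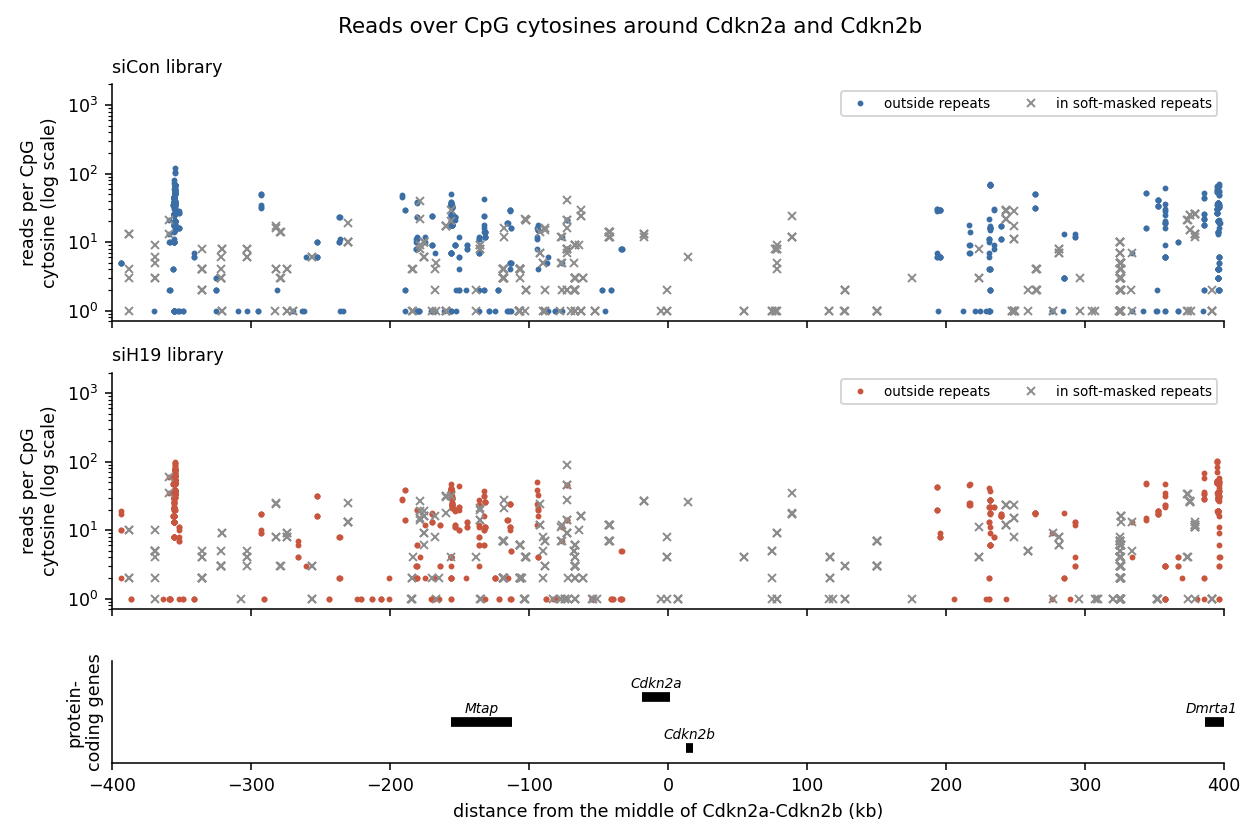
Reads per CpG cytosine (log scale) against the distance in kb from the middle of Cdkn2a-Cdkn2b, for siCon and siH19, with cytosines outside repeats as dots and those in soft-masked repeats as crosses, and protein-coding genes below. Between the last dot on the left and the first on the right lie 227 kb with crosses only, and Mtap and Dmrta1 lie in covered ground.

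Reads of sequence that occurs more than once in the genome cannot be placed uniquely, so the ends of the fragments were looked up. After conversion of C to T, the first 32 bases of a fragment end occurred once in the converted genome, both strands included, for 92 of 94 ends outside repeats in the stretch around Cdkn2a and Cdkn2b. In the covered ground the counts were 168 of 229 ends to the left and 96 of 97 to the right. Over the genome, consecutive fragment cytosines outside repeats without a read in either library formed 342 runs of 50 or more. The run with Cdkn2a and Cdkn2b, with 656 cytosines, was the second longest of them. The longest, with 1460 cytosines on chromosome 14, had 0 of 312 ends that occurred once. Among the 15 longest runs, the share of ends that occurred once was 97.8% for the one around Cdkn2a and Cdkn2b and at most 6.25% for each of the other 14. Whether the sequence is missing from these cells, or differs from the C57BL/6J reference so that its reads were not placed, was not tested.

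**Figure D2:**
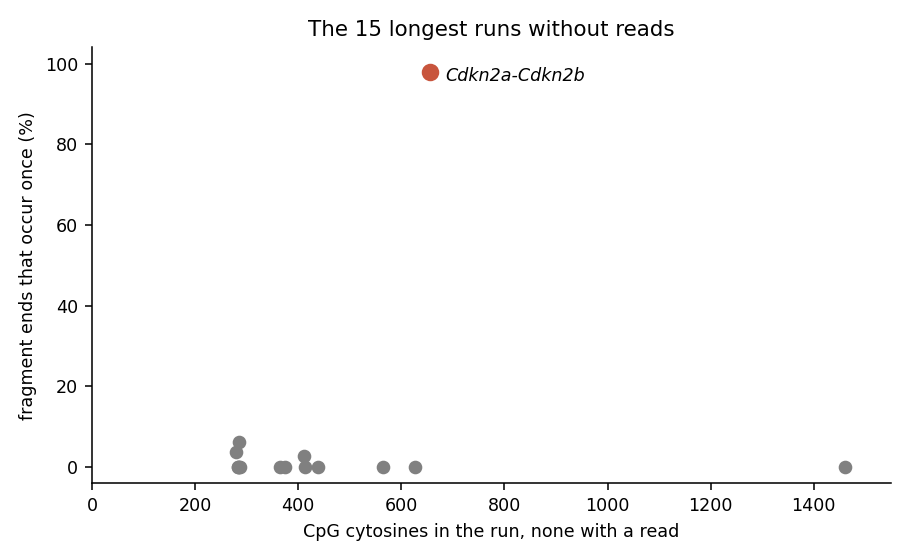
Share of fragment ends that occur once in the converted genome (%) against the number of CpG cytosines in the run, for the 15 longest runs of cytosines outside repeats without a read in either library. The run with Cdkn2a and Cdkn2b, in red, stands at 97.8%, and the others, in grey, at 6.25% or less.

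The other 7 genes had their CpG-rich starts almost free of methylation in both libraries, and none of their promoters differed past the thresholds. Levels are the mean over cytosines of each cytosine's own share of methylated reads. Promoters were tested by a Cochran-Mantel-Haenszel chi-square test stratified by cytosine, with Benjamini-Hochberg adjustment over 19476 promoters, and called at an adjusted p under 0.05 with a mean difference of at least 10 percentage points. Of all promoters 0.539% were called, and 5.69% had an adjusted p under 0.05 whatever their difference. Of the 6 member promoters that could be tested, 0 were called and 0 had an adjusted p under 0.05. Reads that span several cytosines are counted at each, so these p-values are too small and the intervals of summed reads below are too narrow.

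Among the CIP/KIP inhibitors, the Cdkn1b promoter averaged 6.38% in siCon and 5.96% in siH19 over 91 cytosines (Cochran-Mantel-Haenszel chi-square, adjusted p = 0.457). This was the highest level of the 6, and the higher values lay before the start. Over the 6 cytosines lying 1000 to 750 bp before the start the means were 42.0% and 35.3%. From 750 to 500 bp before it, 10 cytosines averaged 22.1% and 21.3%. From 500 to 250 bp before it the libraries stood the other way, with 3.47% in siCon and 13.9% in siH19 over 6 cytosines of the minus strand. Each of these had only 6 reads in siH19 and 22 to 24 in siCon, and a read over several of them is counted at each. In the last 250 bp before the start, the stretch printed above, 26 cytosines averaged 0.292% and 0.623%. The outermost of the Cdkn1b cytosines, at −846 bp, was methylated in 25 of 26 reads in siCon and in 24 of 30 in siH19.

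Cdkn1a has its CpG-rich start 2793 bp inside the gene as annotated, so its cytosines counted as gene body. Over the 56 cytosines within 1 kb of that inner start the mean was 1.48% in siCon and 0.698% in siH19 (chi-square, adjusted p = 0.939). The summed reads gave 1.00% (Wilson 95% interval 0.657 to 1.53%) and 0.698% (0.447 to 1.09%). The last 250 bp before the inner start, also printed above, averaged 1.56% and 1.23% over 16 cytosines. Further in, 89 cytosines from 3258 to 4660 bp past the outer start averaged 0.708% and 0.475%.

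Of the INK4 genes with reads, the Cdkn2c promoter averaged 0.804% in siCon and 0.597% in siH19 over 101 cytosines, with adjusted p = 0.565 (chi-square). At 74 of these no methylated read was seen in either library. Around the inner Cdkn2c start, 1817 bp past the outer one, 71 cytosines averaged 0.876% and 0.283%, a difference of −0.59 points (chi-square, adjusted p = 0.0389 over all windows at annotated starts). That adjusted p is under 0.05, as in 6.28% of such windows over the genome, but the difference is far under 10 points. The window was added after the data had been seen, because some members have more than one start. The Cdkn2d promoter averaged 1.23% and 1.12% over 58 cytosines (chi-square, adjusted p = 0.957), with 4.08% and 4.65% over the 8 cytosines lying 500 to 250 bp before the start.

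Among the pocket proteins, the Rb1 promoter had the most cytosines of all, 183, and averaged 1.18% in siCon and 1.01% in siH19 (chi-square, adjusted p = 0.532). Its higher values were at the edge: 8 cytosines between −677 and −621 bp averaged 17.2% and 10.2%, whereas 175 cytosines from −260 to 922 bp averaged 0.446% and 0.595%. The Rbl1 promoter had the lowest level of the 6, with 0.741% and 0.375% over 92 cytosines (chi-square, adjusted p = 0.432). The Rbl2 promoter averaged 1.96% and 1.13% over 46 cytosines, with p = 0.0201 before adjustment by the same chi-square test and 0.166 after it. Its summed reads gave 1.8% (1.41 to 2.30%) in siCon and 1.26% (0.875 to 1.82%) in siH19. These intervals overlap, which is not a test of the difference. The profiles of single cytosines show how far the unmethylated ground reached on each side of each start.

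**Figure D3:**
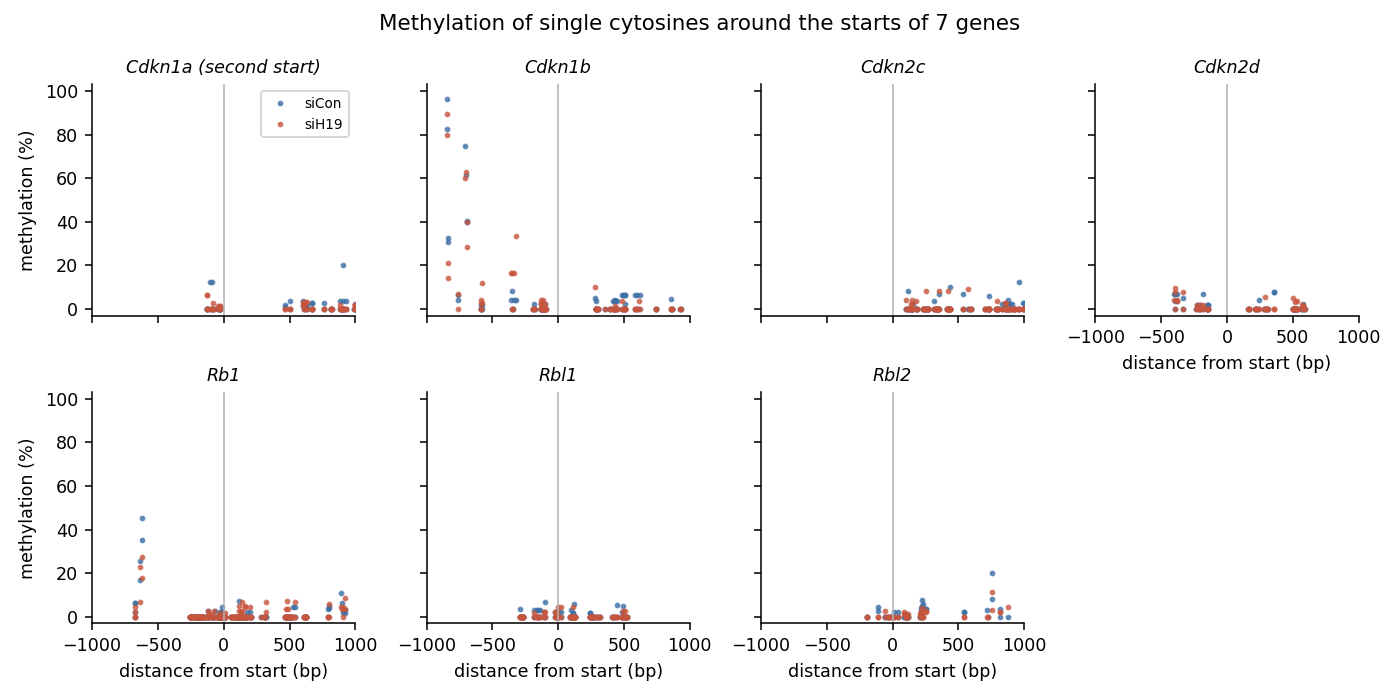
Methylation (%) of each cytosine compared, against its distance from the start in bp, for Cdkn1a (inner start), Cdkn1b, Cdkn2c, Cdkn2d, Rb1, Rbl1 and Rbl2, with siCon in blue and siH19 in red. Values near 0 lie around the starts, for Cdkn2c only past the start, and values above 25% occur before the starts of Cdkn1b and Rb1.

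All 6 tested promoters had a slightly lower mean in siH19, with differences from −0.12 points at Cdkn2d to −0.83 points at Rbl2. Over the genome 45.5% of the promoters under 10% in both libraries had a lower mean in siH19, and their median difference was 0.06 points. The direction held for 3 of the 6 when the window was narrowed to 500 bp: the means were then higher in siH19 by 0.790 points at Cdkn1b, 0.202 at Cdkn2c and 0.260 at Rb1, each with an adjusted p above 0.05. Levels under 10% in both libraries were common, at 58.1% of all tested promoters. How much of such low levels is cytosine that bisulfite left unconverted was not tested.

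Within the gene bodies, outside the promoter windows, the pocket protein genes were mostly methylated, as were the few cytosines of Cdkn2d, whereas Cdkn1a, Cdkn1b and Cdkn2c were mostly unmethylated. The Cdkn1a body cytosines, from 2664 to 4660 bp past the outer start, began just before its CpG-rich inner start. All those of Cdkn2c lay within 1 kb of its inner start. The contrast thus sets ground near starts beside ground mostly deeper in the pocket protein genes, and it was not tested. Bodies were tested as promoters were, over 18018 genes, of which 0.2% were called and 1.08% had an adjusted p under 0.05. Of the 6 member bodies tested, 0 were called and 0 had an adjusted p under 0.05. Rb1 averaged 64.4% in siCon and 65.8% in siH19 over 34 cytosines, Rbl1 79.1% and 81.0% over 24, and Rbl2 86.4% and 82.7% over 22. Cdkn1a averaged 0.839% and 0.590% over 105 cytosines, Cdkn1b 2.38% and 1.38% over 13, and Cdkn2c 0.562% and 0.338% over 44. Over all tested bodies the median levels were 57.2% and 57.7%.

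**Figure D4:**
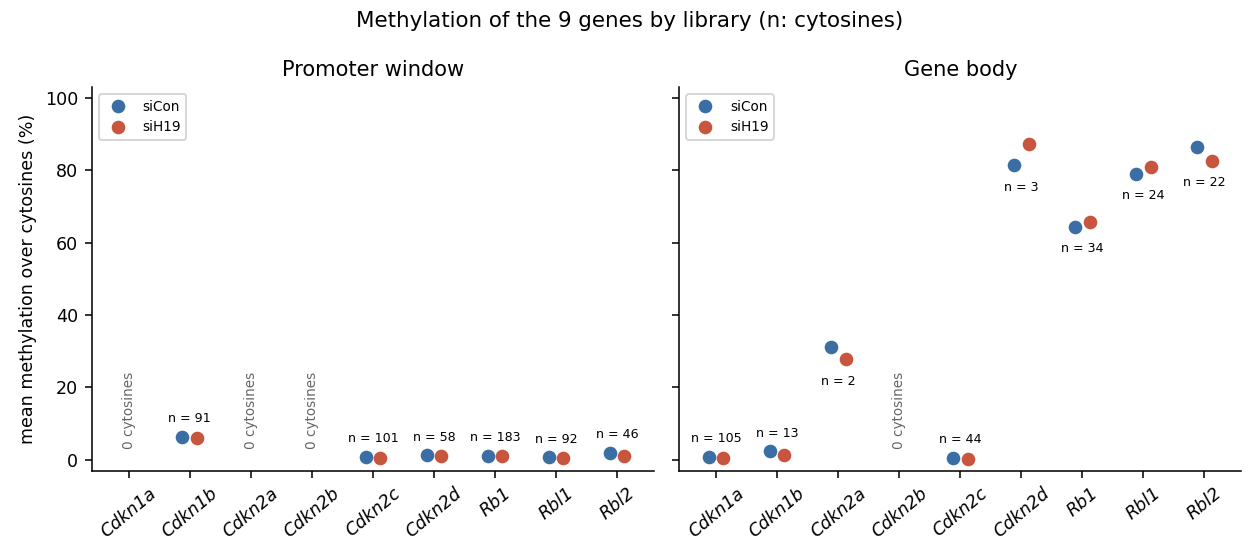
Mean methylation over cytosines (%) of the promoter window and of the gene body of each of the 9 genes, siCon in blue and siH19 in red, with the number of cytosines. Promoters lie under 7% in both libraries where they were read, whereas the bodies of Cdkn2d, Rb1, Rbl1 and Rbl2 lie above 60%.

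Methylation was not even along the long pocket protein genes. In Rb1, 6 cytosines of exon 8 averaged 95.9% in siCon and 99.3% in siH19, and 6 in intron 17, from chr14:73248070 to chr14:73248134, averaged 77.0% and 81.3%. About 9 kb further into intron 17, 4 cytosines at chr14:73238986-73239047 averaged 0% and 1.67%, and 2 at chr14:73238547-73238548 were at 0% in both libraries, with 47 and 22 reads. None of these 6 lies in a repeat. In Rbl1, exon 9 averaged 99.0% and 97.8% over 3 cytosines and exon 21 100% and 98.9% over 4. A repeat in its intron 21 was lower, at 28.1% and 45.0% over 4 cytosines, with 28 and 40 reads summed over them. In Rbl2, exon 16 averaged 98.3% and 97.5% over 6 cytosines, and the lone cytosine 1549 bp past the start was methylated in 12.1% of 33 reads and in 0% of 20. In Cdkn2d, whose body had 3 cytosines and was not tested, the 2 in exon 2 averaged 88.7% and 81.2%.

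No single cytosine of the members was strongly changed, a class defined by a difference of at least 33 points and p under 0.05 in Fisher's exact test (two-sided). Over the genome 0.986% of cytosines were in this class, and 2.53% had p under 0.05. The genome shares in this paragraph were not matched for level, and most member cytosines lay in ground near 0% in both libraries. Of the 818 member cytosines, 0 were strongly changed, 1 had p under 0.05, and 0 had an adjusted p under 0.05. The 1 cytosine lies in exon 1 of Rbl2 at chr8:91070288, 231 bp past the start, and was methylated in 7 of 117 reads in siCon and 0 of 72 in siH19 (p = 0.0454, Fisher's exact test). Differences of at least 33 points, whatever their p, occurred at 4 of the 818 cytosines (0.489%), beside 2.62% over the genome. Of these 4, 1 lay in Cdkn2d, 1 in Rb1 and 2 in Rbl1, all in repeats. The Rb1 one, in intron 2, was methylated in 6 of 10 reads in siCon and 2 of 10 in siH19. The Rbl1 ones were methylated in 0 of 6 against 4 of 10 reads in intron 21, and in 10 of 11 against 5 of 9 in intron 14. At the depths of these 4, differences of this size did not reach p under 0.05. Of the 818 cytosines, 138 were higher in siH19, 170 were lower and 510 were equal. Of all 1850635 cytosines of the genome, 662689 were higher in siH19, 622875 were lower and 565071 were equal.

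**Figure D5:**
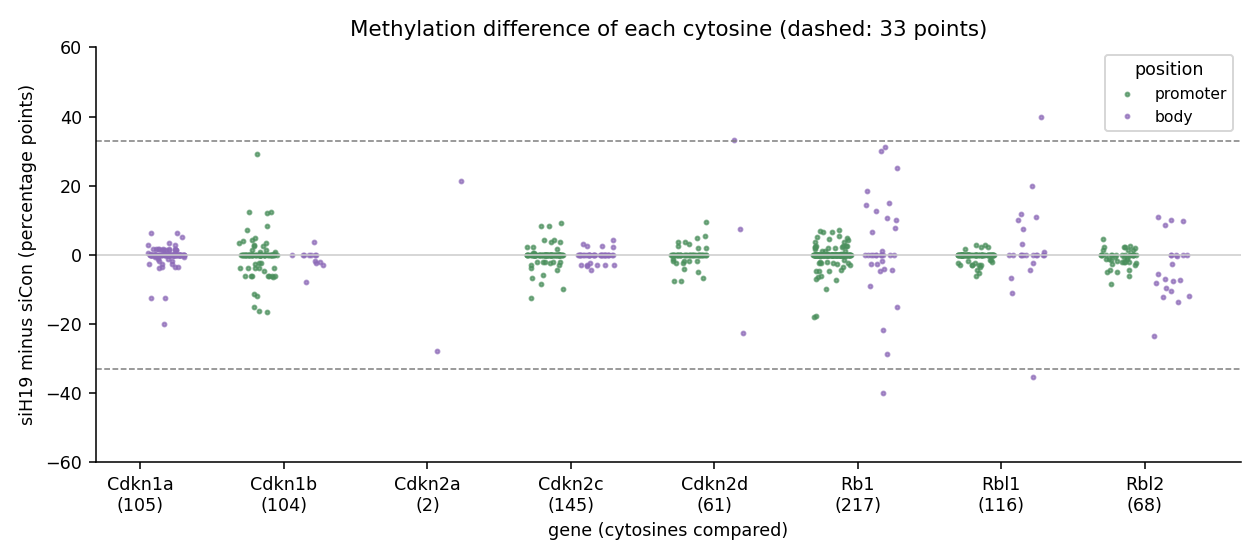
Difference in methylation (siH19 minus siCon, percentage points) of each cytosine, by gene, with promoter windows in green and gene bodies in purple, and dashed lines at 33 points. Promoter cytosines lie within 30 points of 0, and the 4 cytosines at or past a dashed line belong to gene bodies.

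The spread between the strands of a CpG within 1 library gave a scale for these differences. Of 350 member CpGs with both strands compared, 1 had p under 0.05 between the strands in siCon and 0 in siH19 by Fisher's exact test. Between the libraries the counts were 1 on the plus strand and 0 on the minus strand. The root mean square difference was 4.69 points between strands in siCon, 4.13 in siH19, 4.26 between libraries on the plus strand and 4.04 on the minus strand. Over all 755414 such CpGs of the genome, p was under 0.05 between the strands at 3.51% in siCon and 3.28% in siH19, and between the libraries at 2.55% on the plus strand and 2.52% on the minus strand. The root mean square differences there were 12.2 and 11.5 points between strands and 10.5 points between libraries on either strand. By this measure, differences between libraries were no larger than between strands over the genome as a whole. The spread between strands also takes in any lasting difference between strands, so it is not a measure of counting error alone. The mean differences between libraries were 0.211 and 0.223 points over the genome, and −0.272 and −0.530 points for the members. Between strands they were 0.00793 and −0.00395 points over the genome, and −0.205 and 0.0534 points for the members. The spread between cultures was not measured, since each group was 1 library.

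Cytosines inside the cut sites were left out above, since end repair of cut fragments can replace bases there, and they behaved differently. Of 309 such member cytosines, 5 were strongly changed, a share of 1.62% beside 1.93% of all cut-site cytosines. An adjusted p under 0.05 (Fisher's exact test) was reached by 4 of the 309, beside 7343 of all 1563169 cut-site cytosines. The authors removed filled-in bases when calling methylation, and what remains of them in these values was not tested. The cytosines below were named after their values had been seen. The CpG at chr8:91070785-91070786, in a CCGG 728 bp past the Rbl2 start, held 2 of the strongly changed ones, which moved in opposite directions. The plus strand was methylated in 99 of 125 reads in siCon and 22 of 55 in siH19, and the minus strand in 10 of 58 and 26 of 48. The others were a TCGA cytosine of Cdkn1b at chr6:134921513, with 55 of 85 against 19 of 69 reads, a CCGG cytosine of Cdkn2d at chr9:21291203, with 23 of 26 against 17 of 31, and a CCGG cytosine of Rbl2 at chr8:91112373, with 19 of 34 against 0 of 5.

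The other genes of the pathway mostly had low promoter levels too. The list of 32 held the kinases and cyclins that the inhibitors act on, the E2f genes that pocket proteins bind, subunits of the DREAM complex, and regulators such as Trp53 and Myc. Of 29 promoters tested, 27 were under 10% in both libraries, 17 had a higher mean in siH19 and 12 a lower one, with a median difference of 0.09 points, as over all promoters. None was called. An adjusted p under 0.05 was reached by 1 in each direction, Fbxw7 and Cdkn1c, beside the 5.69% of all promoters. Of 24 bodies tested, 0 had an adjusted p under 0.05.

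Cdkn1c, the imprinted gene of the third CIP/KIP inhibitor, p57, stood apart in the level and the difference of its promoter. The Cdkn1c body went the other way, with 35.4% in siCon and 37.2% in siH19 over 101 cytosines (chi-square, adjusted p = 0.518). Its promoter averaged 41.0% in siCon and 31.8% in siH19 over 64 cytosines, a difference of −9.21 points (Cochran-Mantel-Haenszel chi-square, adjusted p = 0.0123) that was under the 10 points required for a call. The next lower means in siH19 were those of Lin52, a DREAM subunit, with 1.71% and 0.947%, and of Ccna2, which encodes cyclin A2, with 0.907% and 0.369%. Fbxw7, a ubiquitin ligase subunit that marks cyclin E for degradation, rose from 0.867% to 2.45% over 80 cytosines (chi-square, adjusted p = 0.0342). The next higher means were those of Cdk2, with 0.265% and 1.53% (chi-square, adjusted p = 0.0655), and E2f6, with 9.35% and 10.5% (chi-square, adjusted p = 0.823). Ccnd2, Lin37 and Skp2 had too few promoter cytosines for a test.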

How the data were processed

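Reduced representation bisulfite sequencing was applied to 2 libraries, grouped by the siRNA given in the labels. The authors used Bismark in non-directional mode for alignment, and filled-in bases were removed. The deposited files gave, per CpG cytosine and strand, methylated and total reads as text, and a score, the methylated share on a 1000-point scale, used here only to check the parsed counts (100% matched). The submitters' processing notes name mm10 and bcl2fastq 1.8.4. All positions on assembled chromosomes fell on CpGs of GRCm38. Removal of duplicate reads was not given in the sources used here.

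Genes came from GENCODE vM21 (basic). Cytosines outside CCGG and TCGA that both libraries read at least 5 times were tested by two-sided Fisher's exact tests, and promoters (1 kb around the outermost start) and bodies with at least 5 cytosines by Cochran-Mantel-Haenszel chi-square tests, with Benjamini-Hochberg adjustment over the genome (Python 3.11.15, numpy, scipy, numba). Scripts were tested on simulated data. Levels between libraries were not normalized. The members and the pathway list were chosen with earlier results of these data known. All members were named, with the pathway genes of the 3 largest promoter differences in each direction. Alternatives are given in the closing section.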

Additional observations from a re-analysis of the deposited data

How the results depend on the processing

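With restriction-site cytosines kept, 5 member cytosines were strongly changed in place of 0. The other settings (at least 10 reads, strands summed, deepest cytosines left out) gave 0. No member promoter or body was called under any setting, windows at each annotated start included. With reads summed over cytosines, 1 body of the pathway list was called, that of Fbxw7, with 53.4% in siCon and 75.3% in siH19. In the main setting its means over cytosines were 60.6% and 65.7% (chi-square, adjusted p = 0.398). Of all bodies, 8.67% were called with summed reads. Of all promoters, 2.52% were called with summed reads. The shares of all promoters and bodies with an adjusted p under 0.05 were not counted with summed reads or with restriction-site cytosines kept. The member values below therefore have no such share beside them. No member was called, but 4 of their values had an adjusted p under 0.05 and moved by over 1.5 times. With summed reads (Fisher's exact test) these were the Rb1 promoter difference (−0.64 in place of −0.17 points, adjusted p = 0.00712), the Rb1 body difference (8.62 in place of 1.42, adjusted p = 0.00812) and the Cdkn2c body difference (−0.72 in place of −0.22, adjusted p = 0.0459). With restriction-site cytosines kept, it was the Cdkn1b body difference (−3.31 in place of −1.0, chi-square, adjusted p = 0.0200). Outside soft-masked repeats, an alternative added after seeing the data, 0% of the Cdkn2a-Cdkn2b fragment cytosines had reads in either library, in place of 0.174% in siCon and 0.347% in siH19. The promoter difference changed sign with a window of 500 bp at Cdkn1b (0.79 points), Cdkn2c (0.20) and Rb1 (0.26), and with one of 2 kb at Cdkn2d (0.0260). The body difference changed sign at Cdkn1a with at least 10 reads (0.0670) and summed reads (0.0135), and at Rbl1 with strands summed (−0.0791) and summed reads (−3.04). The other 38 of 42 promoter values and 32 of 36 body values kept their direction, and none was called. The causes were not tested. No paired analysis was possible because each group was 1 library. Of the 818 member cytosines, 728 had at least 10 reads in each library.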
